A study of Mus musculus with 36 samples.

Results

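The genes described here are 6 markers of the fields of the hippocampus: Prox1, Dsp, Tdo2 and Neurod1 for the granule cells of the dentate gyrus, Wfs1 for the pyramidal cells of field CA1, and Zbtb20 for the hippocampus at large. They were chosen by name, as every array probe that carries the symbol of one of them, out of 30854 gene symbols in the array table. By symbol, 5 of the 6 were found, with 8 probes. Zbtb20 had no probe under that name and was read from the 2 probes of Zfp288, an older symbol of the same gene in RefSeq, a match added after the table had been seen. The 10 probes stand among 45281 on the array, of which 7, for 4 of the 6 genes, passed the filter on low signal and were tested.

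Male C57BL/6J mice received 10 daily injections of vehicle or of a histone deacetylase inhibitor, and tissue was taken 1 hour after the last injection. The inhibitors were Cpd-60 at 45 mg/kg, SAHA (vorinostat, a hydroxamate) at 25 mg/kg and CI-994 (a benzamide) at 10 mg/kg, so the doses differ between compounds. The hippocampus (HIP), the nucleus accumbens (NAc) and prefrontal cortex (PFC) were dissected from 6 mice per treatment, and RNA of 2 mice was pooled per array. This gave 3 pools for each of 4 treatments in each of 3 regions, or 36 arrays, and the 3 regions of a pool come from the same mice. A dissected hippocampus holds all of its fields together, with glia and neighbouring tissue.

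The hippocampus is built of the dentate gyrus, whose granule cells receive the cortical input, and of the CA fields, whose pyramidal cells carry the signal onward. Each field has its own set of expressed genes. Prox1 is a homeobox transcription factor that keeps granule cells in their identity, Neurod1 is a basic helix-loop-helix factor of their maturation, Dsp encodes the desmosome protein desmoplakin, and Tdo2 encodes tryptophan dioxygenase, which opens the kynurenine pathway. Wfs1 encodes wolframin, a membrane protein of the endoplasmic reticulum. Zbtb20 is a zinc finger repressor needed to form the hippocampal fields and is also made by astrocytes. On GRCm38.p6 the genes lie at chr1:190118035-190170827 (Prox1), chr13:38151294-38198577 (Dsp), chr3:81958412-81975728 (Tdo2), chr2:79452637-79456636 (Neurod1), chr5:36966104-36988982 (Wfs1) and chr16:42875689-43634392 (Zbtb20).

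The sequences before the gene starts are shown for Prox1 and Dsp, the pair whose level was higher in hippocampus than in both other regions in every pool, and for Wfs1, whose highest level lay in another region. They are the 250 bases before the annotated start, from RefSeq on GRCm38.p6, written 5′ to 3′ on the strand of the gene, with each GGGCGG (the GC box, on either strand, so also CCGCCC) in capitals. Prox1 has a pair of starts in the table, and the window shown, on the minus strand, is that of the upstream start, at chr1:190170828-190171077, while Dsp lies on the plus strand at chr13:38151044-38151293 and Wfs1 on the minus strand at chr5:36988983-36989232.
Prox1: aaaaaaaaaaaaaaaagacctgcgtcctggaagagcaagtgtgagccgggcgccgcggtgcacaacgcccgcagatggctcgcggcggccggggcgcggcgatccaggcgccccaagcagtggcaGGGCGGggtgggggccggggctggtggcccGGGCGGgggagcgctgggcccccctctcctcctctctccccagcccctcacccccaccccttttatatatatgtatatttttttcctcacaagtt
Dsp: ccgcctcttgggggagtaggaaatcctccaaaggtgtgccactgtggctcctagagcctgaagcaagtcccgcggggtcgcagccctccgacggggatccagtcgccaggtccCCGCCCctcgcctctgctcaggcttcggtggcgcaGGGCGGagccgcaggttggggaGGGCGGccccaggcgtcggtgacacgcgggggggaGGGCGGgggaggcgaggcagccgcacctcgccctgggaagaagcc
Wfs1: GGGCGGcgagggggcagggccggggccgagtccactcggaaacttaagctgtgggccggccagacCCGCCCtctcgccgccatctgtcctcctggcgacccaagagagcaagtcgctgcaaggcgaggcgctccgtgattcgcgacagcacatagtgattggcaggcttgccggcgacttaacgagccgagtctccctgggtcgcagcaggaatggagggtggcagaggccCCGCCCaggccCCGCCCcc
The motif occurred 2 times in the Prox1 window, 4 times in that of Dsp and 4 times in that of Wfs1. Of 32851 such windows in the table, 32.7% held it. The 3 windows held 20, 22 and 23 CG dinucleotides, against a median of 6 over all windows. The window of the other Prox1 start, at chr1:190169516-190169765, held the motif 1 time and 11 CG dinucleotides. These counts describe the letters and do not set Prox1 and Dsp apart from Wfs1. Of the other granule cell genes, Neurod1 had the motif 4 times and 22 CG dinucleotides in its window, and Tdo2 had 0 and 3. An E-box core, CANNTG, the kind of site read by basic helix-loop-helix factors, occurred 2 times in the Prox1 window shown and 0 times in the other, not at all before Dsp and 1 time before Wfs1, and 66.2% of all windows held it.

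Values below are normalized intensities, that is, the raw probe brightness after quantile normalization of the 36 arrays, and differences are on the log2 scale. A probe is called detected on an array at a detection p of at most 0.01. A difference passes the test at an adjusted p under 0.05 in limma, with Benjamini-Hochberg adjustment over all probes tested. For each gene the probe with the highest mean leads.

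Prox1 was higher in hippocampus than in either other region. In the vehicle pools its leading probe read 219.5, 239.7 and 293.2 in HIP, 105.7, 124.9 and 116.6 in PFC, and 115, 106.8 and 102.6 in NAc. The hippocampal pools lay above every pool of the other regions. Over all 12 arrays of a region, whatever the treatment, the lowest, median and highest values were 199.2, 267.5 and 321.6 in HIP, 102.8, 115.2 and 130.3 in PFC, and 94.5, 106 and 118.2 in NAc, again without overlap. In vehicle the log2 difference was 1.11 ± 0.11 (SE, n = 3 pools a region, limma adjusted p = 5.37e-07) against PFC and 1.20 ± 0.11 (adjusted p = 7.17e-08) against NAc, or 2.16-fold and 2.3-fold. Over the alternatives run, the value against PFC ran from 0.998 to 2.139 and that against NAc from 1.049 to 2.426. The fold thus depends on the processing, while the direction did not. PFC and NAc differed by 0.10 (95% interval -0.13 to 0.32, limma adjusted p = 0.624).

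The second Prox1 probe showed the same order at lower signal. It ranged from 111.2 to 139.3 over the 12 hippocampal arrays and was detected on 11 of them, and from 86.9 to 104.8 over the other 24, where it was detected on none. With the other regions at background its difference is a lower bound, at least 1.14-fold over PFC and at least 1.15-fold over NAc in vehicle, with measured log2 differences of 0.38 (limma adjusted p = 0.000917) and 0.28 (limma adjusted p = 0.00935). The leading probe was detected on 9 of 12 arrays in PFC and 9 of 12 in NAc.

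The leading Dsp probe, 1 of 3, was detected in hippocampus and in neither other region. In vehicle the leading probe read 129.2, 136 and 154.3 in HIP, 89.2, 90.2 and 97.5 in PFC, and 89.9, 94.8 and 96.6 in NAc. Across treatments it was detected on 12 of 12 hippocampal arrays, where it lay between 123.2 and 154.7, and on 0 of 12 in PFC and 0 of 12 in NAc, where the highest value was 103.9. Since the other regions lay at background, the difference is a lower bound. Desmoplakin mRNA was at least 1.30-fold higher in vehicle HIP than in PFC and at least 1.31-fold higher than in NAc, with measured log2 differences of 0.60 ± 0.06 and 0.57 ± 0.06 (SE, n = 3 pools, limma adjusted p = 1.59e-06 and 1.21e-06).

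The other Dsp probes did not show this difference. One ranged from 79.9 to 99.2 and the other from 81.7 to 103.6 over the 36 arrays, with overlapping regions, and together they were detected on 1 array, of NAc. Of these, 1 probe entered the tests, and only because it counted as present in the 3 hippocampal SAHA pools. Its vehicle difference was 0.06 (95% interval -0.06 to 0.18) against PFC and 0.08 (95% interval -0.03 to 0.20) against NAc. The array table holds no probe sequences, so which part of the transcript each probe reads is not analysed here. The leading Dsp probe and the second Prox1 probe likewise passed the filter on low signal only through hippocampal groups. Their adjusted p-values therefore add no weight, and their passing the test lends none to a count of markers higher in hippocampus.

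Neurod1 and Tdo2, the remaining granule cell genes, were detected on 0 of 36 arrays each. Neurod1 lay between 92.1 and 105.4 in HIP, 86.8 and 101.2 in PFC and 89.3 and 104.3 in NAc. Tdo2 lay between 85.1 and 99.7 in HIP, 84.7 and 100.8 in PFC and 82.5 and 97.7 in NAc. Both sat at background with overlapping regions, and neither passed the filter for testing. At the looser limit of a detection p of at most 0.2, Neurod1 counted as present on 7 of 12 hippocampal arrays against 4 of 12 in PFC and 4 of 12 in NAc. No fold is given for either, and a level below what these probes register was not detectable.

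**Figure D1:**
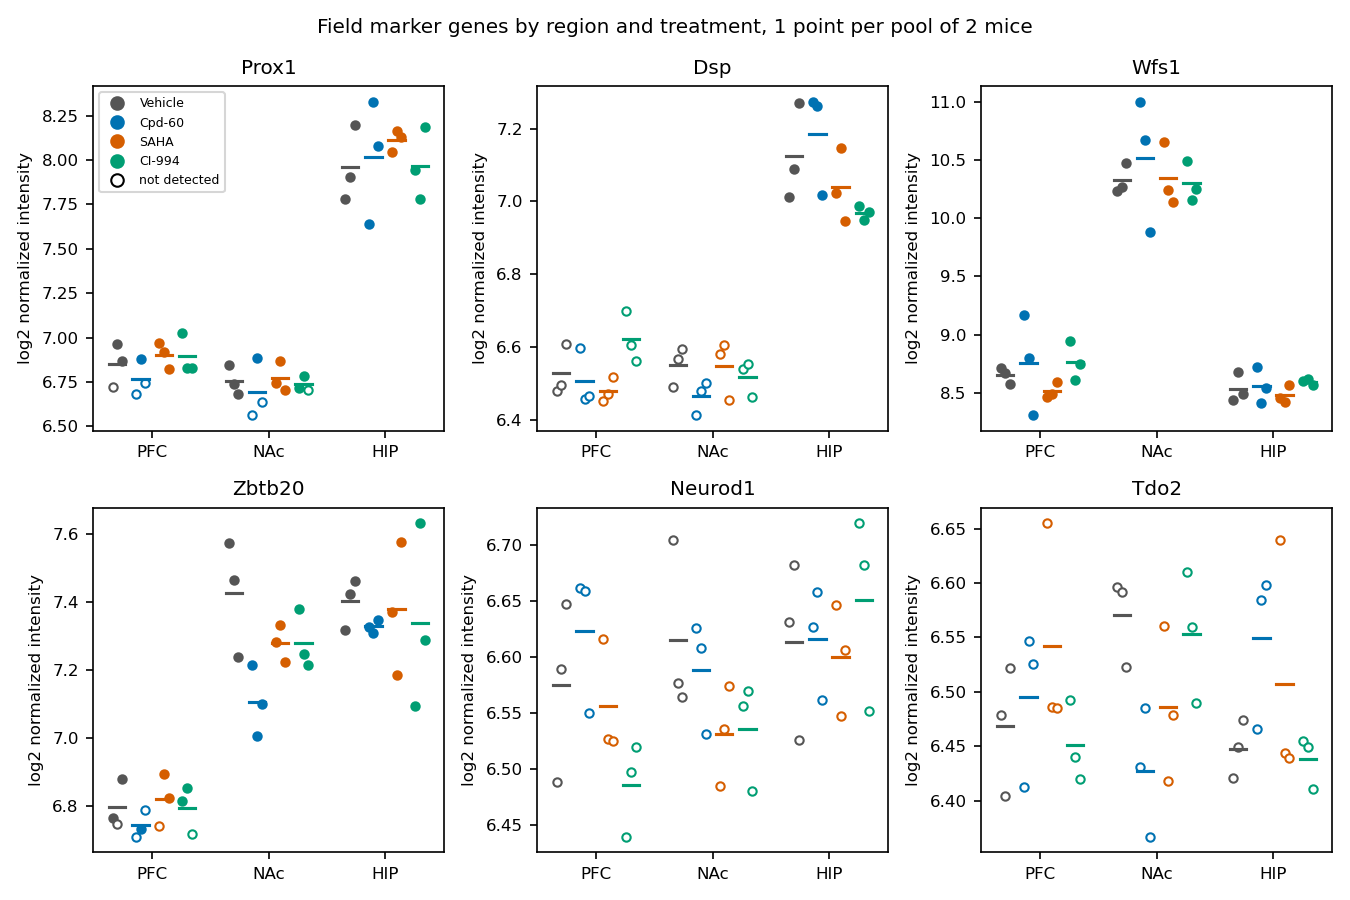
Normalized log2 intensity of the leading probe of each gene (vertical axis, with its own range in each panel) by region and treatment, 1 point per pool of 2 mice, with bars at the mean of 3 pools and open points where the probe was not detected. Prox1 and Dsp separate HIP from both other regions in all pools, Wfs1 is highest in NAc, Zbtb20 is lowest in PFC, and Neurod1 and Tdo2 have no detected point.

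Wfs1, the CA1 marker, was highest in nucleus accumbens and not in hippocampus. In vehicle it read 1200.9, 1234.4 and 1418.1 in NAc, 419.7, 407.5 and 382.7 in PFC, and 347.6, 408.9 and 358.8 in HIP. The accumbens pools lay well above the others, and the PFC and HIP pools overlapped. The hippocampal level was lower than that in NAc by a log2 difference of -1.79 ± 0.14 (SE, n = 3 pools, limma adjusted p = 1.54e-08), and the PFC level by -1.67 ± 0.14 (limma adjusted p = 4.03e-08). HIP and PFC differed by -0.12 (95% interval -0.41 to 0.17, limma adjusted p = 0.618), a direction that turned to 0.11 when arrays were scaled to a common median instead. Wfs1 was detected on all 36 arrays.

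Zbtb20 was lowest in prefrontal cortex. Its leading probe read 159.7, 172 and 176.5 in vehicle HIP, 190.5, 176.9 and 151.1 in NAc, and 108.8, 107.5 and 117.7 in PFC. HIP and NAc overlapped, and both lay above PFC. The log2 difference was 0.61 ± 0.11 (SE, n = 3 pools, limma adjusted p = 0.000523) for HIP over PFC and -0.63 ± 0.11 (limma adjusted p = 0.000285) for PFC against NAc, while HIP and NAc differed by -0.02 (95% interval -0.25 to 0.20), or by 0.12 with arrays scaled to a common median. The leading probe was detected on 7 of 12 arrays in PFC and the second probe on 0 of 12. With PFC at background, the second probe was at least 1.32-fold higher in vehicle HIP. Its measured values were 0.47 (limma adjusted p = 0.0012) and -0.48 (limma adjusted p = 0.000714) for the same 2 comparisons.

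**Figure D2:**
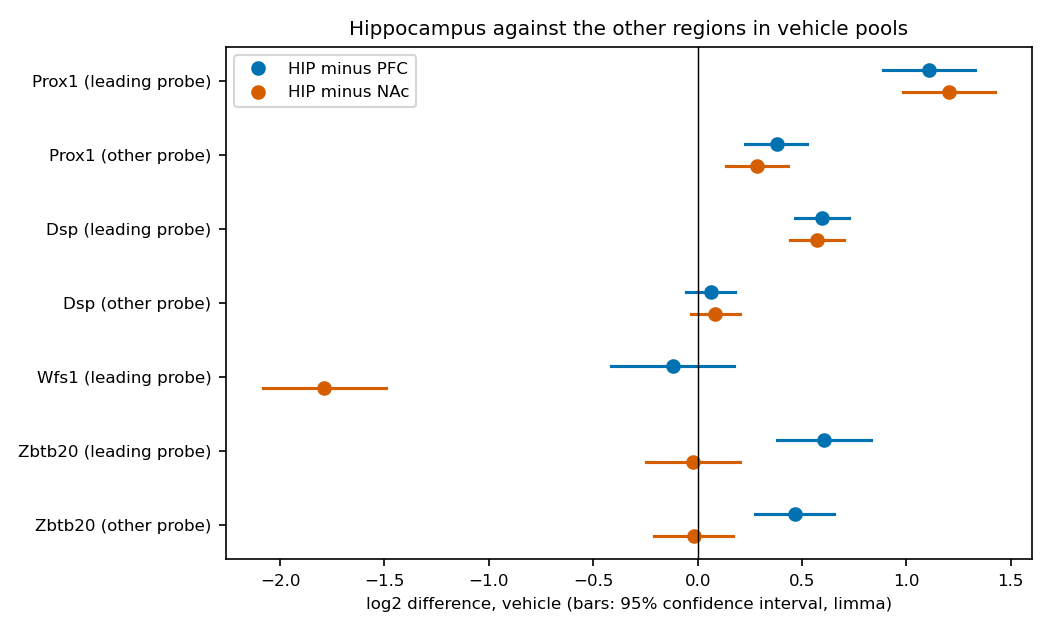
Log2 difference of vehicle HIP from vehicle PFC (blue) and from vehicle NAc (orange) for each of the 7 probes tested, with 95% confidence intervals from limma. Both Prox1 probes and the leading Dsp probe lie above 0 in both comparisons, Zbtb20 lies above 0 against PFC only, and Wfs1 lies at -1.79 against NAc.

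Dsp entered the tests only through hippocampal groups and is left out of the counts that follow. Of the other 3 genes tested, Prox1 and Zbtb20 passed between vehicle HIP and PFC, both higher in HIP, where 19.5% of the 26594 probes tested passed and 9.77% were higher. The pools of these genes did not overlap, as in 18.7% of probes with HIP above PFC. Between HIP and NAc, Prox1 passed as higher and Wfs1 as lower, where 12.9% of probes passed, 5.89% higher and 7.03% lower. Their pools did not overlap, with HIP above NAc in 14.1% and below it in 16.4% of all probes tested. Between PFC and NAc, Wfs1 and Zbtb20 passed, both lower in PFC, where 15.3% of probes passed and 6.71% were lower.

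The regional differences that passed the test between vehicle HIP and another region had the same direction in each of the 12 pools of mice, drug-treated pools included. Prox1 was higher in HIP than in PFC in 12 of 12 pools, by 0.92 to 1.45, and higher than in NAc in 12 of 12, by 0.93 to 1.51. Dsp was higher in 12 of 12 against each region, but it lay at background there and entered only through hippocampal groups. Its count therefore adds no weight. For each Prox1 comparison an exact sign-flip permutation test over the 12 pools, which pools the treatments, gave p = 0.000488. This is the smallest it can give (two-sided, 0.00108 after adjustment over 20 such tests). Wfs1 was lower in HIP than in NAc in every pool, by -2.28 to -1.34 (exact permutation p = 0.000488), and was higher in HIP than in PFC in 3 of 12 pools (exact permutation p = 0.042, adjusted 0.0764). Zbtb20 was higher in HIP than in PFC in 12 of 12 pools and than in NAc in 8 of 12 (exact permutation p = 0.205).

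Under each drug, Prox1, Wfs1 and Zbtb20 also passed the test between hippocampus and the mean of the other regions. For Prox1 the log2 difference was 1.28 under Cpd-60, 1.28 under SAHA and 1.15 under CI-994, each ± 0.09 (SE, n = 3 pools, limma adjusted p of 8.91e-09, 9.72e-09 and 3.79e-08). Dsp, at background in the other regions, was at least 1.17-fold higher in HIP than in either of them in every drug group. Its measured log2 differences were 0.70, 0.52 and 0.40, each ± 0.05. Dsp entered the tests only through hippocampal groups, so that it also passed adds no weight. For Wfs1 the log2 difference was -1.08, -0.95 and -0.94, each ± 0.12 (limma adjusted p of 3.36e-06, 1.78e-05 and 2.25e-05). With arrays scaled to a common median the Wfs1 value under CI-994 was -0.81 (limma adjusted p = 0.0851). The Wfs1 mean joins unlike regions: in the order Cpd-60, SAHA and CI-994, HIP over PFC was 0.87, 0.978 and 0.889 as a fold, and HIP over NAc 0.257, 0.275 and 0.308. Over all probes, 18% passed under Cpd-60, 18.1% under SAHA and 11.4% under CI-994.

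The Zbtb20 mean likewise joins unlike regions, with folds of 1.5, 1.47 and 1.46 for HIP over PFC and of 1.17, 1.07 and 1.04 for HIP over NAc. Its log2 differences from the mean were 0.40, 0.33 and 0.30 (limma adjusted p of 0.00498, 0.0185 and 0.0413). Its second probe, at background in PFC, gave 0.40 (limma adjusted p = 0.00145), 0.11 (limma adjusted p = 0.359) and 0.23 (limma adjusted p = 0.0695). For the leading probe, the SAHA value was 0.31 (limma adjusted p = 0.105) without SAHA replicate 1 and 0.22 (limma adjusted p = 0.241) without SAHA replicate 3. The Cpd-60 value was 0.38 (limma adjusted p = 0.06) without Cpd-60 replicate 2. The CI-994 value fell to 0.16 (limma adjusted p = 0.392) without CI-994 replicate 2, was 0.29 (limma adjusted p = 0.178) without CI-994 replicate 3, and its adjusted p was 0.0507 to 0.0603 on leaving out any of Vehicle replicate 2, Cpd-60 replicates 1 to 3 or SAHA replicate 1, at the same value of 0.30.

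The question put to the hippocampal arrays was whether 10 days of an inhibitor moved these genes. No gene of the 6 passed the test, and none of the 23275 probes did (percent passing 0 for each drug), in limma over the 12 hippocampal arrays. At an unadjusted p under 0.05, there were 1224 probes (5.26%) for Cpd-60, 2182 (9.37%) for SAHA and 755 (3.24%) for CI-994, and none of the leading probes was among them. The 12 hippocampal arrays lay on 2 slides. Vehicle and Cpd-60 had 2 pools on the first slide and 1 on the second, SAHA and CI-994 had 1 and 2. The fit had no slide term, so for SAHA and CI-994 against vehicle, drug and slide are partly mixed. An analysis of variance with Tukey's test on the same values also passed 0 probes after adjustment over probes. At a Tukey p under 0.05 there were 357 for Cpd-60, 618 for SAHA and 260 for CI-994. That p already allows for all pairs of treatments, so these counts and those of limma are not like measures. Without Cpd-60 replicate 3, 5 probes passed for Cpd-60, all higher, and 7 for any drug. The Cpd-60 pools left then lay on the first slide alone, so drug and slide are partly mixed in these counts. With 3 pools against 3, an exact permutation test of a single gene cannot go below p = 0.1.

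No treatment separated Prox1 from vehicle in hippocampus. The leading probe read 199.2, 321.6 and 270.4 under Cpd-60, 264.7, 286.6 and 280.2 under SAHA, and 246, 219.6 and 290.7 under CI-994, against the vehicle values given above. All groups overlapped with vehicle, and the lowest and the highest hippocampal value were both Cpd-60 pools. The log2 differences from vehicle were 0.06 (95% interval -0.29 to 0.41), 0.15 (-0.20 to 0.50) and 0.01 (-0.34 to 0.36). With arrays scaled to a common median these became -0.01, -0.30 and -0.01, so no direction is given.

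The mean of Dsp was lowest under CI-994, and its lowest single value was a SAHA pool. The leading probe read 154.7, 153.6 and 129.5 under Cpd-60, 130, 141.8 and 123.2 under SAHA, and 126.8, 123.6 and 125.4 under CI-994. The CI-994 pools lay below all 3 vehicle pools, a separation that 4.6% of all probes tested showed in that direction. The difference from vehicle was -0.15 for CI-994 (95% interval -0.34 to 0.04, unadjusted p = 0.101, limma adjusted p = 1), 0.06 for Cpd-60 (-0.13 to 0.25) and -0.08 for SAHA (-0.28 to 0.10). Within the 2 hippocampal BeadChips, the slides that carry several arrays each, the CI-994 difference was -0.06 and -0.31.

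Whether a drug's effect in hippocampus differed from its mean effect in PFC and NAc was tested for all 26594 probes, and 0 passed for each drug, with 593, 1852 and 578 at an unadjusted p under 0.05 for Cpd-60, SAHA and CI-994. For the leading probes of Prox1, Wfs1 and Zbtb20 these differences ran from -0.13 to 0.13. The second Zbtb20 probe, at background in PFC, read 0.17, -0.11 and 0.003 in the same order of drugs. For Dsp none is given, since PFC and NAc lay at background.

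Wfs1 in hippocampus read 422.5, 340.3 and 371.8 under Cpd-60, 351.1, 344 and 379.2 under SAHA, and 388.9, 394.3 and 378.8 under CI-994. The groups overlapped, with differences from vehicle of 0.02 (95% interval -0.16 to 0.21), -0.05 (-0.24 to 0.13) and 0.06 (-0.12 to 0.25). Scaling to a common median in place of quantile normalization gave -0.57 for SAHA (limma adjusted p = 0.0422). On that scale the median over all 23275 probes was itself -0.19 for SAHA and 3241 probes passed, 8 of them higher, and SAHA replicates 2 and 3 were dim arrays, with raw 95th percentiles of 437.7 and 452 against up to 850.1 in the region. Without those 2 pools the quantile-normalized value was -0.08. The part of array brightness in these values was not tested.

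Zbtb20 read 160.8, 158.6 and 163 under Cpd-60, 165.6, 145.8 and 191.1 under SAHA, and 136.6, 198.5 and 156.4 under CI-994. Every group overlapped with vehicle, and the differences were -0.07 (95% interval -0.34 to 0.20), -0.02 (-0.29 to 0.25) and -0.06 (-0.33 to 0.20). These are values of the leading probe. The second probe also overlapped with vehicle in every group, and read 0.09 (-0.13 to 0.31), -0.18 (-0.40 to 0.04) and -0.03 (-0.25 to 0.19). For Cpd-60 the probes thus had opposite signs. Neurod1 lay between 93.5 and 105.4 and Tdo2 between 85.1 and 99.7 in the drug-treated hippocampi, at background as in vehicle.

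**Figure D3:**
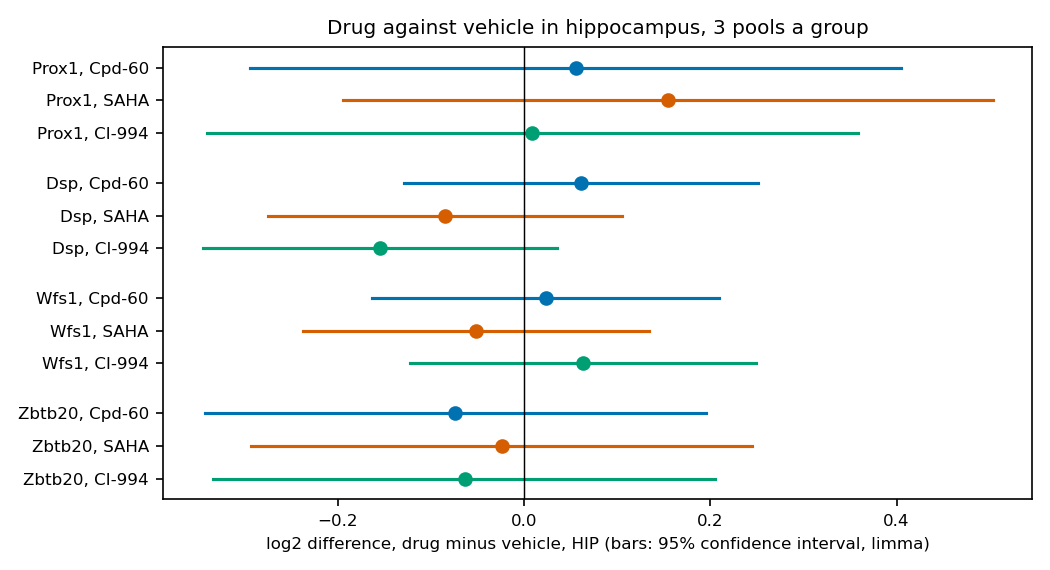
Log2 difference of each drug from vehicle in hippocampus for the leading probes of the 4 genes tested, with 95% confidence intervals from limma over 12 arrays, 3 pools a group. Every interval holds 0, and the widest, those of Prox1, reach from -0.34 to 0.50.

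Compared with each other at the doses given, which were not matched, the 3 inhibitors gave no difference that passed the test. That was 0 of 23275 probes in each of the 3 pairs. At an unadjusted p under 0.05 there were 3525 probes (15.1%) for Cpd-60 against SAHA and 1902 (8.17%) for Cpd-60 against CI-994. For SAHA against CI-994 there were 1909 (8.2%). In the pairs with Cpd-60, drug and slide are partly mixed, since the pools were spread unlike over the slides. The dim SAHA replicates 2 and 3 both lay on the second slide. The part of array brightness in these counts was not tested. The counts passing changed when Cpd-60 replicate 3 was left out, the only Cpd-60 pool on the second slide. Then 1019 probes passed between Cpd-60 and SAHA and 24 between Cpd-60 and CI-994. None of them was a leading probe of the 6 genes. The Cpd-60 pools left lay on the first slide alone, so drug and slide are mixed further in these counts. Among the leading probes the largest separation was in Dsp, higher under Cpd-60 than under CI-994 by 0.22 (95% interval 0.03 to 0.41, unadjusted p = 0.0291, limma adjusted p = 0.539). The second Zbtb20 probe was higher under Cpd-60 than under SAHA by 0.28 (unadjusted p = 0.0181, limma adjusted p = 0.268), where the leading probe read -0.05, so the probes of this gene disagreed. For Prox1 the intervals of the pair differences were -0.45 to 0.25, -0.30 to 0.40 and -0.20 to 0.49 in the same order of pairs. These intervals leave room for differences of that size, and do not show that the compounds act alike.

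The 6 genes stand beside longer lists of field markers, taken from general knowledge. In vehicle, 9.77% of all probes were called higher and 9.73% lower in HIP than in PFC, and 5.89% higher and 7.03% lower than in NAc. The counts and medians below include genes at background in the other region, which could enter only through hippocampus. Of 14 dentate granule genes, 7 were tested: 5 were higher in vehicle HIP than in PFC and 0 lower, and 4 were higher than in NAc and 1 lower. C1ql2, a secreted protein of mossy fibre synapses, led with 3.61 against PFC and 3.95 against NAc (limma adjusted p = 6.08e-14 and 3.6e-15). Dock10 passed against PFC (1.02) but read -0.23 against NAc (limma adjusted p = 0.254), and Pdzd2 was lower in HIP than in NAc (-0.56). The list's median was 0.60 and 0.34 on the 2 comparisons, against -0.02 and -0.001 over all probes tested. The value of 0.60 is that of Dsp itself, at background in PFC, so this median adds no weight. Prox1 and Dsp are among the 7, Wfs1 is among the CA1 genes below and Zbtb20 among the regulators, so these counts are not separate from the values above.

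Among 10 CA1 genes, all tested, 5 were higher and 2 lower in HIP than in PFC, and 5 higher and 1 lower than in NAc. Fibcd1 (3.07 and 2.53) and Spink8 (3.02 and 2.61) passed higher in both, as did the signalling factor Lefty1 (1.52 against PFC, and at least 2.84-fold against NAc, where no vehicle array detected it), whereas Wfs1 was the 1 gene lower than in NAc. Mpped1 was lower than in PFC (-0.47) and higher than in NAc (1.10). The list's median was 0.22 and 0.23. Of 15 CA2 and CA3 genes, 13 were tested, with 8 higher and 0 lower against PFC and 9 higher and 2 lower against NAc. Among the higher were Bok, a member of the Bcl2 family (1.30 and 1.68), and the adhesion protein Pvrl3 (0.51 and 1.71). Lower than in NAc were Stard5 (0.635-fold) and Pcp4 (0.889-fold as measured, not detected in vehicle HIP). The list's median was 0.38 and 0.54.

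Of 7 regulators of hippocampal or archicortical identity, 5 were tested and 3 were higher than in PFC and 3 than in NAc, of which Neurod2 and Lhx2 were higher than in both. Neurod2, a relative of Neurod1 found in pyramidal and granule neurons, was higher by 0.72 against PFC and by 3.39 against NAc. Of 7 genes of immature granule cells, 6 were tested: 2 were higher and 1 lower than in PFC, and 0 higher and 2 lower than in NAc, with the migration protein Dcx lower in both (-0.28 and -0.41). In hippocampus 0 genes of these lists passed the test under any drug.

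**Figure D4:**
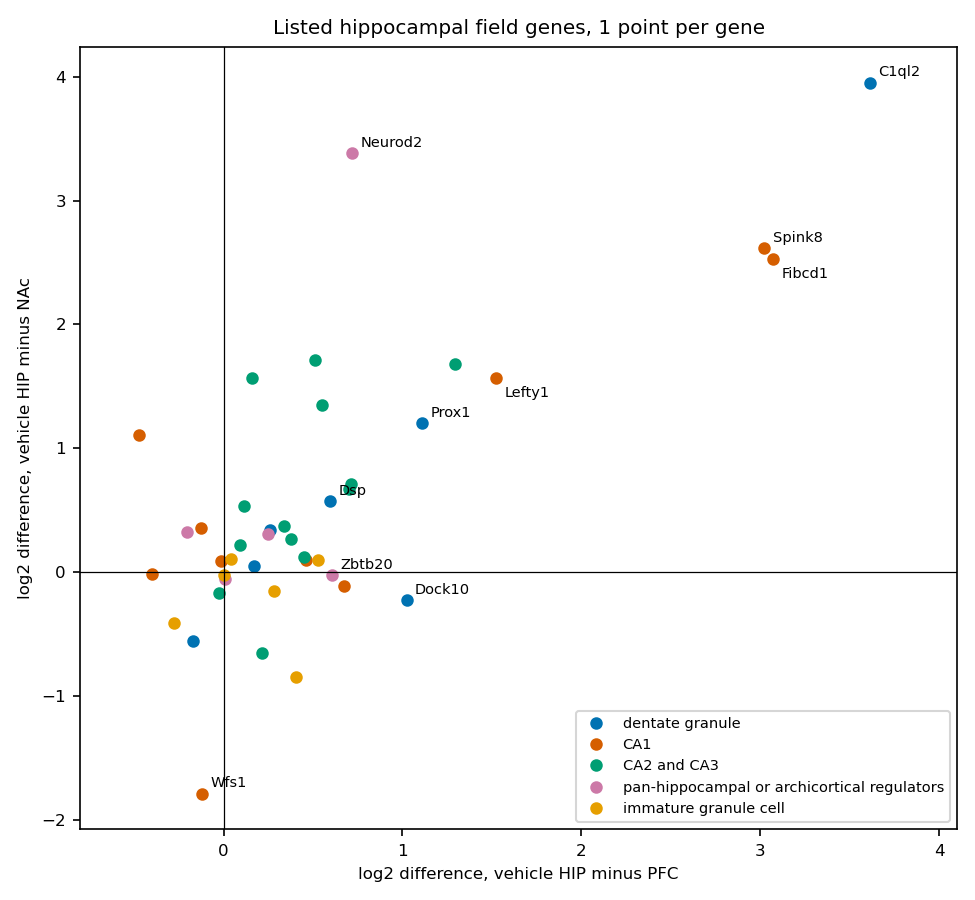
Log2 difference of vehicle HIP from PFC (horizontal axis) and from NAc (vertical axis) for the tested genes of the 5 hippocampal field lists, 1 point per gene, coloured by list. Both axes use the same hippocampal arrays, and genes at background in a region have only a lower bound there; C1ql2 lies farthest at upper right, and Wfs1 lowest, at -1.79 on the vertical axis.

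Markers of other cells differed between regions too, and their counts stand beside the shares of all probes given with the field lists. The 7 oligodendrocyte genes were all higher in vehicle HIP than in PFC and 3 of 7 higher than in NAc, with summed intensities of 25698 to 28660 in HIP, 9088 to 11115 in PFC and 15912 to 20639 in NAc. Of 7 choroid plexus genes, 6 were higher in HIP than in PFC and 4 than in NAc, with summed intensities of 3139 to 11341 in vehicle HIP, 1645 to 11347 under CI-994 there, and at most 2122 in any array of the other regions. Most of the hippocampal sum was 1 gene, which ran from 963 to 10278 over the 12 HIP arrays. Another went the other way against NAc, at 0.548-fold in vehicle HIP, without passing. Of 7 astrocyte genes, 1 was higher and 1 lower in HIP than in PFC and 4 were higher than in NAc, with summed intensities of 13660 to 14965 in HIP, 12679 to 13329 in PFC and 11452 to 11744 in NAc. The 8 striatal genes were all lower in HIP and in PFC than in NAc, as Wfs1 was, with summed intensities of 19599 to 21666 in NAc and 1869 to 2411 in the vehicle arrays of the other regions. Their part in the levels of the 6 genes was not tested. In dissected tissue, fewer cells of a type and less mRNA per cell cannot be told apart. Each BeadChip held 1 region, so region and slide cannot be told apart, and BeadChip as a random block does not resolve this. With that block the calls between vehicle regions were kept, as under the other alternatives.

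The probes most like each gene were found by Pearson's r over the 36 arrays, among the 26594 probes tested and leaving out clone names; the points share arrays and regions, so r mostly follows the regional order. Nearest to Prox1 were C1ql2 (0.98), Golm1 (0.97) and Serpina3n (0.96), with its own second probe at 0.93. Among the nearest to Dsp were Lefty1 (0.95) and Golm1 (0.94), while its other tested probe stood at 0.28. Nearest to Wfs1 were Rxrg, Rasgrp2 and Indo (0.98, 0.97 and 0.97), and nearest to Zbtb20 were Hist1h2bj, Ppp4r4 and Doc2b (0.88, 0.87 and 0.87). Within the 12 hippocampal arrays the order changed: the nearest to Prox1 was Xpnpep1 (0.91), to Dsp Vps13b (0.90), to Wfs1 Cited4 (0.92) and to Zbtb20 Myo10 (0.91), and the second Prox1 probe followed the first at 0.55.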

How the data were processed

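RNA of 36 pools of 2 mice was hybridised to Illumina MouseWG-6 arrays. The authors deposited raw, unnormalized intensity and a detection p-value for each probe and array. They applied quantile normalization in GeneSpring for their own analysis. Here the 36 arrays were quantile normalized together, values under 1 set to 1, and log2 taken. A probe entered a fit if 1 group or more had it present, at a detection p no higher than 0.2, on all 3 arrays. Regions were compared with limma 3.58.1 (R 4.3.3, lmFit and eBayes) over 36 arrays, with group and animal pool as terms, since the regions of a pool come from the same mice; treatments were compared over the 12 hippocampal arrays with treatment alone. The same pool in different regions correlated over 0.1 in 11 of 36 pairs (median r -0.018). For different pools of a treatment it was 25 of 72 (median r 0.017), so the pool term rests on the labels. Same-numbered pools of different treatments are different mice, and the number was a block only in an alternative. Raw medians ran from 82.2 to 108.3 and raw 95th percentiles from 349.9 to 1079.7, with 31.9% to 43.3% of probes detected; 3 pools a group limit the precision. The titles and source names call pools separate mice, and these were used. For Cpd-60 replicate 2, the description in each region names the mice of replicate 1 instead. The 6 genes, all gene lists and tests were chosen with earlier results of these data known. Named are the 6 genes, genes of the field lists, and the 3 genes nearest to each by Pearson's r. 1 gene that this rule names is not reported here. Alternatives were neqc normalization, median scaling, a stricter and no detection filter, the block left out or added, BeadChip, vehicle arrays alone, the CI-994 arrays left out, an analysis of variance with Tukey's test, and each pool left out. The fits were tested on simulated data. Promoter windows were read with Python from a RefSeq table. Lists of thalamic, neocortical, interneuron, meningeal and endothelial genes were also run; in vehicle HIP against PFC 0, 1, 2, 1 and 1 of them were higher and 1, 4, 1, 2 and 1 lower.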

Additional observations from a re-analysis of the deposited data

How the results depend on the processing

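All calls between vehicle regions were kept under every alternative run: of 228 alternatives for single genes 224 kept direction and call, and 4 uncalled values changed sign. The size of the called differences depended on the processing. Vehicle HIP over PFC ran from 0.998 to 2.139 for Prox1 and from 0.569 to 1.404 for Zbtb20. With arrays scaled to a common median, the count of genes passing, Dsp included, fell from 4 to 2 for CI-994 HIP against PFC and NAc, and rose from 0 to 1 for SAHA against vehicle (Wfs1, -0.57) and for SAHA against CI-994 (Wfs1, -0.61). On that scale Zbtb20 no longer passed under Cpd-60 (0.45), SAHA (0.07) or CI-994 (0.33), nor Wfs1 under CI-994 (-0.81). Without a detection filter, and with BeadChip as a random block, Zbtb20 under CI-994 had an adjusted p of 0.0586 and 0.0561. Uncalled values that changed sign under median scaling were Wfs1 in vehicle HIP against PFC (0.11), Zbtb20 in vehicle HIP against NAc (0.12), the SAHA effect between regions of Wfs1 (-0.68), Zbtb20 (-0.35) and Prox1 (-0.38), the CI-994 effect of Wfs1 (-0.11) and Zbtb20 (-0.088), and in hippocampus Wfs1 (-0.081) and Prox1 (-0.011) for Cpd-60, Prox1 for SAHA (-0.30) and CI-994 (-0.005), Zbtb20 (0.20) and Prox1 (0.29) for Cpd-60 against SAHA, Prox1 for Cpd-60 against CI-994 (-0.006), and Zbtb20 (-0.25), Prox1 (-0.29) and Dsp (-0.10) for SAHA against CI-994. Under neqc the CI-994 effect between regions of Zbtb20 was -0.011 and its Cpd-60 against CI-994 value 0.01. With BeadChip as a random block the effects between regions were -0.032 for Wfs1 under SAHA, -0.021 for Wfs1 under CI-994 and -0.011 for Zbtb20 under CI-994, and with BeadChip as a fixed block Prox1 for CI-994 was -0.04 and Zbtb20 for Cpd-60 against CI-994 was 0.032. The causes were not tested. Leaving out 1 pool at a time changed the sign of further uncalled values. In vehicle the range was -0.147 to 0.092 for Zbtb20 in HIP against NAc and -0.041 to 0.001 for Dsp in PFC against NAc. For drugs against vehicle it was -0.06 to 0.096 (Wfs1) and -0.101 to 0.244 (Prox1) for Cpd-60, -0.098 to 0.019 (Wfs1) and -0.123 to 0.072 (Zbtb20) for SAHA, and -0.099 to 0.127 (Prox1) and -0.212 to 0.058 (Zbtb20) for CI-994. For the effects between regions it was -0.387 to 0.014 for Wfs1 under Cpd-60, -0.068 to 0.087 (Wfs1) and -0.075 to 0.165 (Zbtb20) under SAHA, and -0.07 to 0.109 (Wfs1), -0.133 to 0.161 (Zbtb20) and -0.136 to 0.13 (Prox1) under CI-994. Between drugs it was -0.008 to 0.148 (Wfs1), -0.255 to 0.09 (Prox1) and -0.146 to 0.049 (Zbtb20) for Cpd-60 against SAHA, -0.123 to 0.033 (Wfs1), -0.132 to 0.138 (Zbtb20) and -0.11 to 0.236 (Prox1) for Cpd-60 against CI-994, and -0.082 to 0.188 (Zbtb20) for SAHA against CI-994. Pool number as a replicate block in hippocampus, and no replicate block across regions, changed no call of the 6 genes. Over all probes the replicate block moved the count passing from 0 to 91 for Cpd-60 against SAHA, to 4 for any drug, and to 1 each for SAHA against vehicle, Cpd-60 against CI-994 and SAHA against CI-994. Same-numbered hippocampal pools of different treatments, which the labels give as different mice, correlated over 0.1 in 11 of 18 pairs (median r 0.19), against 7 of 36 for different numbers (median r -0.09), and 7 of 12 pools correlated best with their own number. Since not every pair was over 0.1, the numbers were not taken as pairs. Pool number and BeadChip largely overlap in hippocampus, and the part of the slide in these correlations and in the replicate block was not tested. Signal near background limits Dsp, Neurod1 and Tdo2, the second Prox1 probe, and Zbtb20 in PFC.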
